A study of Mus musculus with 8 samples.

Results

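The genes of MHC class I antigen presentation were followed in blood monocytes (MCs) of control and diabetic mice. They were 10 genes chosen by symbol from the 16486 genes of the deposited table, and each had a value in all 8 libraries. They are the heavy chain genes H2-K1, H2-D1 and H2-T23, the light chain gene B2m, the peptide transporter genes Tap1 and Tap2, the loading factor gene Tapbp, the immunoproteasome genes Psmb8 and Psmb9 and the regulator gene Nlrc5. Male mice aged 20 to 22 weeks formed 3 groups. The CT group was C57/BL6 without treatment. For T1DM, C57/BL6 animals received streptozotocin (STZ), a toxin of pancreatic beta cells, in 5 daily doses of 50 mg/kg that began when they were 8 weeks old. The T2DM group was db/db, a mouse that is homozygous for a leptin receptor mutation and becomes obese and diabetic. All were on normal chow. Sorting gave the inflammatory Ly6Chigh MCs (CD11b+Ly6G-Ly6Chigh) and the patrolling Ly6Clow MCs (CD11b+Ly6G-Ly6Clow).

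RNA of 5 mice was pooled for each group, and the labels describe sequencing of such pools in duplicate. There were 2 libraries of each subset from CT mice and 1 library of each subset from T1DM and from T2DM mice, so the spread between replicates may be technical and does not have to hold the difference between mice. The sequencer was a NextSeq for CT but a HiSeq for T1DM and T2DM. Sequencer and diabetes therefore cannot be told apart in a comparison with CT, and T2DM against T1DM is the comparison within 1 sequencer. The SD over all genes of the difference between the diabetic and the CT mean was 0.272, against 0.743 for the T2DM minus the T1DM mean. The diabetic mean pools T1DM and T2DM, whose differences from CT can cancel, and it holds more libraries. The SDs are therefore unlike measures and do not give the size of a sequencer effect. Whether the deposited values had been adjusted between the CT and the diabetic sets is not stated in the sources used here. Some genes had 1 identical value in both CT Ly6Chigh libraries, and it differed by gene. It was -2.02 for Raet1d, -1.70 for H2-M2 and 1.54 for H2-Ea-ps, against -2.58, -2.62 and 0.92 in T1DM Ly6Chigh MCs. Whether each gene had been shifted between the sets was not tested, and differences from CT carry this limit. The table holds log2 values between -4.05 and 15.64 and no counts, so the depth behind a value is unknown.

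Class I molecules show the T cell a sample of the proteins made inside a cell. Proteasomes, in which interferon puts the immune subunits in place of constitutive ones, cut proteins into peptides, TAP carries these into the endoplasmic reticulum, tapasin holds empty class I molecules at TAP, and a heavy chain folds with beta-2 microglobulin and a peptide before it goes to the cell surface. NLRC5 acts in the nucleus as the main transactivator of this gene set, and interferon regulatory factors raise it in response to interferon. H2-K1 and H2-D1 are classical heavy chains that differ between mouse strains in sequence, and H2-T23 encodes the nonclassical Qa-1 chain, a ligand of receptors on NK cells.

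The genes lie close together. In the GENCODE M21 annotation of GRCm38, 8 of the 10 are on chromosome 17 within the H2 complex, all of them protein-coding. From the first to the last, Tapbp spans chr17:33915899-33929292 on the + strand, H2-K1 chr17:33996017-34000347 on the - strand, Psmb9 chr17:34181987-34187764 on the - strand, Tap1 chr17:34187553-34197225 on the + strand, Psmb8 chr17:34197721-34201454 on the + strand, Tap2 chr17:34203527-34216321 on the + strand, H2-D1 chr17:35262730-35267499 on the + strand and H2-T23 chr17:36029773-36032855 on the - strand. B2m lies apart at chr2:122147686-122153083 on the + strand and Nlrc5 at chr8:94434356-94527272 on the + strand.

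The sequence before the start of transcription is shown for 4 of them. H2-K1 is given because it was called between the diabetic groups and H2-D1 as the other classical heavy chain, B2m because it is the partner of every heavy chain, and Tap1 because it shares the stretch with Psmb9. RefSeq promoter sequences of GRCm38.p6 were matched for 8 genes, with no entry for Tap2 and Nlrc5. Each is the 250 bases before the first start listed, 5′ to 3′ along the gene's own strand. Capitals mark matches, on either strand, to GGGGATTCC (a nuclear factor kappa B type element), GAAANNGAA (an interferon response type element), TGACG (the core of a cyclic AMP response element) and CCAAT, and no matches overlapped each other.
H2-K1, chr17:34000348-34000597, - strand: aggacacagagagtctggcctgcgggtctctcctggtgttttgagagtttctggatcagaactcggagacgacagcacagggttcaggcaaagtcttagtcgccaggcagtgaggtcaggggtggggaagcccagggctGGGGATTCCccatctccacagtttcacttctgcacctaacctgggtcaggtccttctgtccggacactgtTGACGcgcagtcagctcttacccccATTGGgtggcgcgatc
H2-D1, chr17:35262844-35263093, + strand: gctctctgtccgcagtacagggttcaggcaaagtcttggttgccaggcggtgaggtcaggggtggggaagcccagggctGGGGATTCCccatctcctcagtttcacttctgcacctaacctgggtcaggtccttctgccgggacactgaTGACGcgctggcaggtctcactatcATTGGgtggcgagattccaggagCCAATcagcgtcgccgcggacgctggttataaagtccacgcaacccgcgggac
B2m, chr2:122147437-122147686, + strand: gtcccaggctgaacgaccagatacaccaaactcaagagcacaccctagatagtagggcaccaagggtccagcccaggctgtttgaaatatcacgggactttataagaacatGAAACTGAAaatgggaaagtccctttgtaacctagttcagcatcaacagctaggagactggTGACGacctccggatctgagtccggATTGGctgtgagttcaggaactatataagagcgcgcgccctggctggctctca
Tap1, chr17:34187306-34187555, + strand: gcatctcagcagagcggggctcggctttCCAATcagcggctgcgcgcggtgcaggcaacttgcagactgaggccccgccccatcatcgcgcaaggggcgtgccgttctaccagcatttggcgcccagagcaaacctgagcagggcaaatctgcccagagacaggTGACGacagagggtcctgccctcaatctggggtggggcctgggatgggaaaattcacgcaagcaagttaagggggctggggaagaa
GGGGATTCC was found before H2-K1 and H2-D1 alone among the 8 genes and in 0.215% of 32536 promoter stretches of the same length. Aligned at that element, the 2 heavy chain stretches had the same base at 166 of 190 positions (87.4%). GAAANNGAA was found before B2m and H2-T23 (7.15% of all stretches). Only this form of the interferon response type element was searched, so unmarked bases, also those of H2-K1 and H2-D1, may hold another form. TGACG was found before 5 of the genes (H2-K1, H2-D1, B2m, Tap1 and Psmb9, 17.9% of all) and CCAAT before 7 of the genes (33.8% of all). TTCNNNGAA was searched as well and was found before Psmb8 (7.04% of all). The stretches of Tap1 and Psmb9 overlapped by 225 bases and are read on opposite strands.

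The classical markers separated the labelled subsets clearly and the nonclassical markers less so. The summed level of 8 classical monocyte genes was 13.46 to 14.81 in Ly6Chigh and 10.13 to 10.53 in Ly6Clow MCs on the log2 scale, and that of 10 nonclassical monocyte genes was 10.60 to 11.60 and 11.79 to 12.16. In CT mice 7 of those 10 were higher in Ly6Clow MCs, whereas Cx3cr1 (0.83), Itgal (0.25) and Nr4a1 (0.18) had higher values in Ly6Chigh MCs. Genes of other cells were also present. The summed level of 14 B cell genes was 8.54 to 9.53 in Ly6Chigh and 12.54 to 12.81 in Ly6Clow MCs, where it exceeded the nonclassical sum, and that of 12 NK cell genes was 5.40 to 7.42 and 7.91 to 10.41. The summed levels of 14 T cell genes (5.92 to 6.38 and 6.71 to 7.33), 9 of 12 neutrophil genes (8.86 to 9.76 and 7.21 to 8.28), 8 of 9 dendritic cell genes (6.35 to 7.39 and 7.94 to 8.73) and 8 platelet genes (7.75 to 9.64 and 8.00 to 9.74) are given in the same order. Most of the neutrophil sum was Csf3r (8.66 to 9.36 and 6.86 to 7.51), named after its values were seen. The paper reports Csf3r as higher in Ly6Chigh MCs, so this sum does not measure neutrophils alone. In each subset the T2DM library had the lowest NK cell, T cell and platelet sums and the highest neutrophil and classical monocyte sums. The T2DM Ly6Chigh library also had the lowest B cell (8.54), dendritic cell (6.35) and nonclassical monocyte (10.60) sums of its subset. The T2DM Ly6Clow library had the highest B cell sum of its subset (12.81), while its dendritic cell and nonclassical sums lay within the range of the others. B and NK cells also carry class I molecules, and the part of any of these cells in the values below was not tested. In bulk RNA, fewer cells of a type and less RNA in each cell cannot be told apart.

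In CT mice, 7 of the 10 genes were higher in Ly6Chigh than in Ly6Clow MCs (45.3% of all genes), although H2-D1 and B2m turned their sign under quantile normalization. Tap1, a chain of the peptide transporter, was 2.15-fold higher and was the 1 gene of the 10 that was called. A call needed limma's Benjamini-Hochberg adjusted p under 0.01 and a change past 2-fold, and 3.52% of all genes were called in this comparison. Nlrc5 and Tapbp had smaller differences in the same direction, and H2-K1, Tap2 and Psmb9 had lower values in Ly6Chigh MCs.

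Tap1 had log2 values of 7.22 and 7.23 in CT Ly6Chigh and 6.17 and 6.07 in CT Ly6Clow MCs. The replicates lay close and the subsets did not overlap. The log2 difference was 1.10 (SE 0.07, limma, Benjamini-Hochberg adjusted p = 0.00747). This call was lost when any CT library was left out, where no gene of the table was called, under quantile normalization (difference 0.90), without the variance trend of the fit (adjusted p = 0.0291) and with the replicate block (adjusted p = 0.0342). Tapbp, which encodes tapasin, stood at 7.86 and 7.84 against 7.16 and 7.16, a difference of 0.69 (SE 0.05, limma, adjusted p = 0.00799) that is under 2-fold. Nlrc5 had 6.61 and 6.85 against 5.94 and 5.95, a difference of 0.79 (SE 0.11, limma, adjusted p = 0.0259). For both genes every Ly6Chigh library lay above every Ly6Clow library. Such a separation, also that of Tap1, was not counted over all genes. Of all genes, 37.7% had an unadjusted p under 0.05 in limma's CT test.

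The heavy chains did not share a direction in CT mice. H2-T23 had values of 7.55 and 7.64 in Ly6Chigh and 7.09 and 7.01 in Ly6Clow MCs (difference 0.55, SE 0.07, limma, adjusted p = 0.0205). H2-D1 was 10.61 and 10.60 against 10.30 and 10.34 (0.28, SE 0.03, limma, adjusted p = 0.0112). H2-K1 lay the other way, at 9.76 and 9.73 against 10.03 and 10.05 (-0.29, SE 0.03, limma, adjusted p = 0.0137). B2m, the shared light chain, was 11.46 and 11.54 against 11.17 and 11.17 (0.33, SE 0.03, limma, adjusted p = 0.0132). None of these differences reached 2-fold. The signs for H2-D1 and B2m turned under quantile normalization of the libraries (-0.09 and -0.02).

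The remaining transporter and proteasome genes did not pass the test. Tap2, the other transporter chain, had 4.41 and 4.21 in Ly6Chigh and 4.66 and 4.82 in Ly6Clow MCs (-0.43, SE 0.15, limma, adjusted p = 0.132). Psmb8, which replaces Psmb5 in the immunoproteasome, had 7.11 and 7.36 against 6.79 and 6.95 (0.37, SE 0.12, limma, adjusted p = 0.127). Psmb9, which replaces Psmb6, overlapped between the subsets at 6.95 and 6.60 against 7.03 and 6.82, and its 95% interval of the difference ran from -0.62 to 0.32. Tap1 and Psmb9, which share their promoter stretch, thus had differences of 1.10 and -0.15 in the same libraries.

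**Figure D1:**
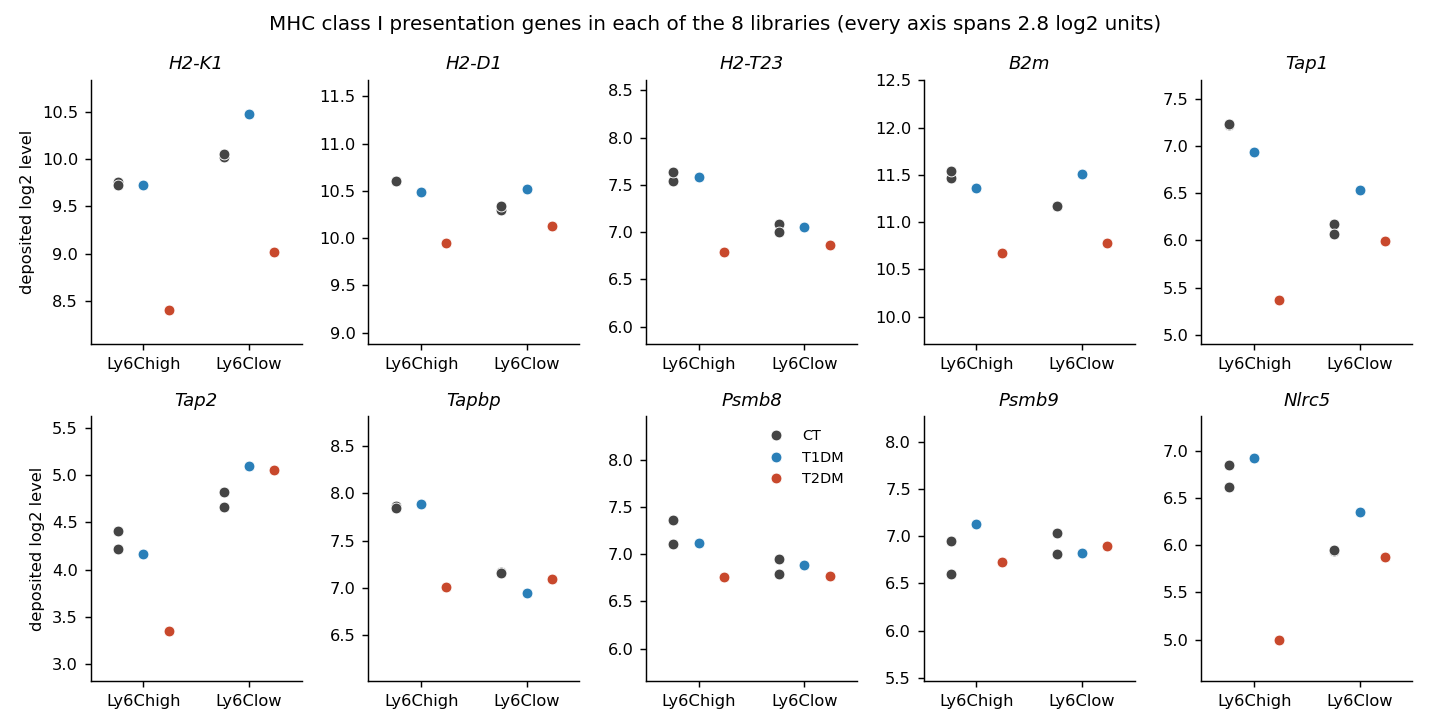
Deposited log2 level (y axis) of the 10 class I genes in Ly6Chigh and Ly6Clow MCs (x axis), with a point for each library of CT, T1DM and T2DM mice. In Ly6Chigh MCs the T2DM point is the lowest for 9 of the 10 genes, Psmb9 being the exception, while in Ly6Clow MCs H2-K1 (9.01) and B2m (10.78) lie farthest below the other libraries.

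T1DM and CT mice were compared next, and none of the 10 genes was called. In limma's test over both subsets, 0.0% of all genes were called and 551 genes, none of them among the 10, had an unadjusted p under 0.05. No class I gene differed from the CT mean by more than 1 on the log2 scale in either subset, against 10.1% of all genes in Ly6Chigh and 8.81% in Ly6Clow MCs that did so in either direction. These shares include genes of low level, whereas the lowest value of the class I genes was 3.35. The differences ran from -0.29 (Tap1) to 0.36 (Psmb9) in Ly6Chigh MCs and from -0.22 (Tapbp) to 0.44 (H2-K1) in Ly6Clow MCs. Of the 10 genes, 8 were above CT in T1DM Ly6Clow MCs (50.3% of all genes), with a median difference of 0.27 beside 0.00 over all genes. The widest 95% interval of the 10 genes was that of Nlrc5, from -0.42 to 1.01, and that of H2-K1 ran from -0.05 to 0.46.

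T2DM MCs had lower class I values than T1DM MCs for most of the genes, with the larger median difference in Ly6Chigh MCs. In Ly6Chigh MCs all 10 genes were lower (48.8% of all genes), with a median difference of -0.81 beside 0.00 over all genes. Of them, 3 (Nlrc5, Tap1 and H2-K1) were lower by more than 1 (10.8% of all genes). In Ly6Clow MCs 8 genes were lower (49.0% of all genes), with a median of -0.29 beside 0.00. There 1 gene, H2-K1, was lower by more than 1 (7.97% of all genes). H2-K1 was also the 1 gene of the 10 past 1 in the same direction in both subsets (4.90% of all genes, and 2.24% of those with a mean log2 level of at least 3). In limma's test over both subsets H2-K1 was the 1 gene called of the 10 (0.588% of all genes). Each difference within a subset is between 1 library and another and has no replicate check.

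H2-K1, a classical heavy chain, had values of 9.72 in T1DM and 8.41 in T2DM Ly6Chigh MCs and of 10.48 and 9.01 in Ly6Clow MCs. Both T2DM values lay below all 6 other libraries, whose lowest value was 9.72. How many of all genes had such an order over the libraries of both subsets was not counted, for this gene or those below. H2-K1 fell by 1.39 on the log2 scale over both subsets (SE 0.13, limma, Benjamini-Hochberg adjusted p = 0.00127), a 2.62-fold difference. Against CT MCs it fell by 1.18 (SE 0.11, limma, adjusted p = 0.00256), where it was again the 1 gene called of the 10 (0.297% of all genes). The call against CT was lost without any single CT library, with adjusted p between 0.0103 and 0.015 in limma. The call against T1DM was kept in each of these fits, which left out no diabetic library and could change only the spread of that contrast. Without the variance trend both calls were lost (adjusted p = 0.0876 against CT and 0.0588 against T1DM), and with the replicate block the call against CT was lost (adjusted p = 0.0304).

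B2m, without which class I molecules do not reach the cell surface, was 11.37 in T1DM and 10.68 in T2DM Ly6Chigh MCs, and 11.51 and 10.78 in Ly6Clow MCs. The T2DM libraries had the 2 lowest values of the 8, and the differences from T1DM in the subsets were alike (-0.69 and -0.73). Over both subsets the difference was -0.71 (SE 0.14, limma, adjusted p = 0.0414), which is under 2-fold. H2-D1 was 10.49 and 9.95 in Ly6Chigh and 10.52 and 10.12 in Ly6Clow MCs, and its T2DM values were the 2 lowest as well (-0.47, SE 0.13, limma, adjusted p = 0.135). H2-T23, the Qa-1 chain, was 7.59 and 6.79 in Ly6Chigh but 7.06 and 6.87 in Ly6Clow MCs (-0.50, SE 0.17, limma, adjusted p = 0.235).

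The transport and loading genes had low values in T2DM Ly6Chigh MCs, and in Ly6Clow MCs the values lay closer. Tap1 was 6.94 in T1DM and 5.37 in T2DM Ly6Chigh MCs, and 6.53 and 6.00 in Ly6Clow MCs. Tap2 was 4.16 and 3.35 in Ly6Chigh and 5.09 and 5.06 in Ly6Clow MCs. Tapbp was 7.89 and 7.01 in Ly6Chigh and 6.94 and 7.09 in Ly6Clow MCs. For all 3 genes the T2DM Ly6Chigh library lay below the other 3 Ly6Chigh libraries, and for Tap2 and Tapbp the T2DM Ly6Clow library lay within the range of the other 3. None was called over both subsets, with Tap1 at -1.05 (SE 0.36, limma, adjusted p = 0.23), Tap2 at -0.43 (SE 0.32, adjusted p = 0.61) and Tapbp at -0.36 (SE 0.22, adjusted p = 0.508).

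Over both subsets the immunoproteasome genes had the smallest differences of the 10. Psmb8 was 7.12 in T1DM and 6.75 in T2DM Ly6Chigh MCs, and 6.89 and 6.77 in Ly6Clow MCs. Psmb9 was 7.13 and 6.73 in Ly6Chigh and 6.82 and 6.90 in Ly6Clow MCs, within the range of the CT libraries in the T2DM case. Their 95% intervals for T2DM minus T1DM over both subsets ran from -0.59 to 0.11 and from -0.57 to 0.25. Set against the constitutive subunit it replaces in the same library, Psmb8 minus Psmb5 was 0.76 in T2DM Ly6Chigh MCs and 1.34 to 2.02 in the 7 other libraries. Psmb9 minus Psmb6 was 1.01 there and overlapped the CT Ly6Chigh libraries (1.39 and 1.00). Tap1 minus Psmb9, the pair with the shared stretch, was -1.36 in T2DM Ly6Chigh MCs, 0.27 and 0.63 in CT Ly6Chigh, -0.20 in T1DM Ly6Chigh and -0.90 to -0.29 in the 4 Ly6Clow libraries, so the 2 genes did not keep a constant ratio.

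Nlrc5, the transactivator of the set, had the largest single difference. It was 6.93 in T1DM and 5.00 in T2DM Ly6Chigh MCs, a 3.79-fold difference, and 6.35 and 5.88 in Ly6Clow MCs. CT MCs stood at 6.61 and 6.85 in Ly6Chigh and at 5.94 and 5.95 in Ly6Clow MCs, so the T2DM Ly6Chigh library was the lowest of all 8. Over both subsets the difference was -1.20 (SE 0.36, limma, adjusted p = 0.17).

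Compared with CT MCs, all 10 genes were lower in T2DM Ly6Chigh MCs (48.0% of all genes), with a median of -0.84 beside 0.02 over all genes. In T2DM Ly6Clow MCs 9 were lower (50.7% of all genes), with a median of -0.11 beside -0.01 over all genes. Tap1 (-1.85), Nlrc5 (-1.73) and H2-K1 (-1.34) were lower by more than 1 in Ly6Chigh MCs (7.89% of all genes), and H2-K1 (-1.03) in Ly6Clow MCs (5.68% of all genes). The T2DM library lay below the other 3 libraries of its subset for 9 genes in Ly6Chigh MCs (28.4% of all genes) and for 7 genes in Ly6Clow MCs (28.7% of all genes). These counts share the T2DM libraries with those against T1DM.

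The subset difference itself was then compared between mouse groups. In T2DM mice all 10 genes were lower in Ly6Chigh than in Ly6Clow MCs (51.3% of all genes), whereas 7 in CT (45.3%) and 6 in T1DM mice (47.2%) were higher. Tap2 (-1.71) was the 1 gene past 1 in T2DM mice (29.1% of all genes in either direction), and in T1DM mice no gene of the 10 was past 1 (27.9% of all genes). In limma's test of the T2DM subset difference against that of CT and T1DM mice, none of the 10 genes was called (0.0303% of all genes) and 5 had an unadjusted p under 0.05, beside 9.59% of all genes. Taken over the 3 mouse groups, none of the 10 was called between the subsets (12.1% of all genes).

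Nlrc5 had the widest shift, from 0.79 in CT and 0.58 in T1DM to -0.88 in T2DM mice (-1.60, SE 0.23, limma, adjusted p = 0.0784). Tap1 went from 1.10 and 0.40 to -0.62 (-1.49, SE 0.31, limma, adjusted p = 0.185). Tapbp went from 0.69 and 0.94 to -0.09 (-0.86, SE 0.18, limma, adjusted p = 0.185). The regulator, the transporter chain and the loading factor thus lay on the other side of 0 in T2DM mice, with no difference past the adjusted threshold. Tap2 (-1.11, SE 0.36, limma, adjusted p = 0.379) and H2-T23 (-0.62, SE 0.17, limma, adjusted p = 0.297) also had an unadjusted p under 0.05. H2-K1 kept its sign and had -0.29, -0.75 and -0.61 in CT, T1DM and T2DM mice, with a 95% interval of the shift from -0.63 to 0.31.

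**Figure D2:**
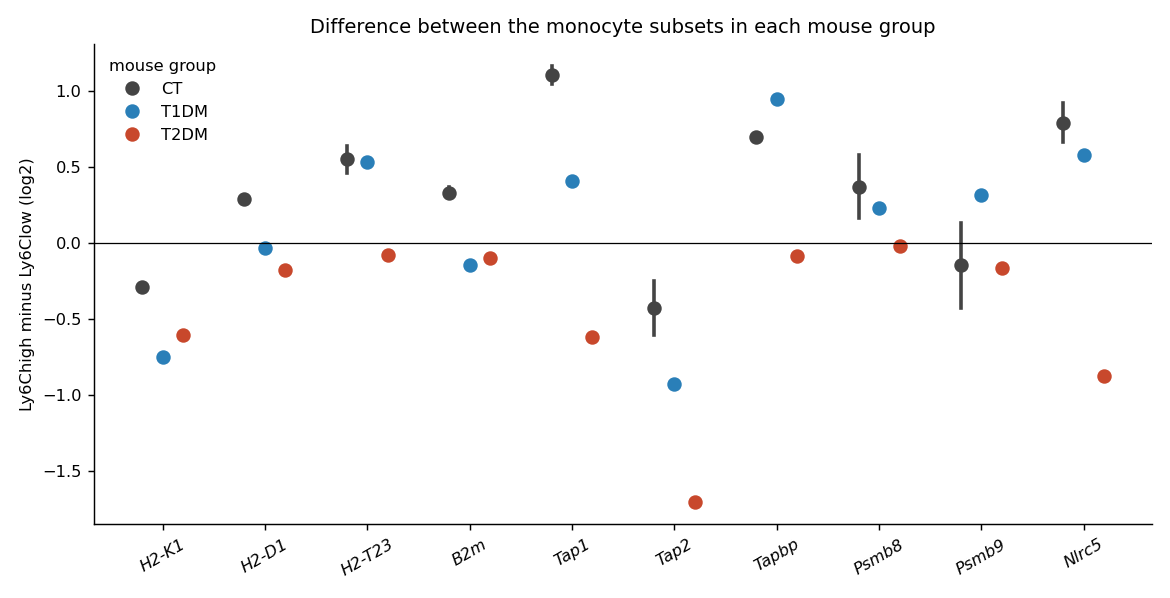
Ly6Chigh minus Ly6Clow log2 difference (y axis) of each class I gene (x axis) in CT, T1DM and T2DM mice. CT points are the difference of the means with a line over the 4 pairs of CT libraries, and T1DM and T2DM points are 1 library against another. Tap1 (1.10 in CT, -0.62 in T2DM) and Nlrc5 (0.79 and -0.88) cross 0, and all T2DM points lie below 0.

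H2-K1 was the gene called in T2DM against T1DM MCs, and its neighbours in the H2 complex were examined because that complex differs between mouse strains. The db mutation arose in the C57BLKS strain, which carries the d haplotype of H2, and is also kept on C57BL/6, which carries the b haplotype. The genetic background of the db/db mice is not stated in the sources used here. Mice of the b haplotype do not transcribe the class II gene Ea, because its promoter is deleted, and the reference transcripts of GRCm38 come from C57BL/6J. H2-Ea-ps, the entry for Ea at chr17:34341959-34344645, was at 1.54 in 3 of the 4 CT libraries and at 2.93 in the fourth, and at 0.92 and 0.75 in T1DM MCs. It was at 4.41 in T2DM Ly6Chigh and 8.70 in T2DM Ly6Clow MCs, above all 6 C57/BL6 libraries in both subsets, with a T2DM minus T1DM difference of 5.72 over both subsets (limma, adjusted p = 0.0202). The value of the 3 CT libraries at 1.54 was identical, so it may be a floor and not a level. How that value arose was not tested. The part of the H2 haplotype in the H2-K1 values was not tested.

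Other class I heavy chains near H2-K1 and H2-D1 differed in opposite directions. In Ly6Chigh MCs H2-K2, next to H2-K1, stood at 6.22 in the T2DM library against 3.59 for T1DM and 3.89 and 4.24 for CT. In Ly6Clow MCs the T2DM value was 6.63, against 3.64 for T1DM and 4.18 and 4.67 for CT, so the T2DM libraries lay above all others. It rose by 2.81 on the log2 scale in T2DM against T1DM MCs (SE 0.24, limma, adjusted p = 0.000804). H2-Q7, a Qa-2 heavy chain, fell by 1.76 (SE 0.23, limma, adjusted p = 0.00749), and was at 6.28 in T1DM and 4.71 in T2DM Ly6Chigh MCs and at 8.79 and 6.83 in Ly6Clow MCs. H2-Q2 (-1.15 to 2.14 in the C57/BL6 libraries, 4.55 and 4.96 in T2DM) and H2-Bl (-0.38 to 2.06, and 2.94 and 3.73) had higher T2DM values too, without passing the threshold (limma, adjusted p = 0.0101 and 0.0521), and were named after their values were seen. In the list of other class I heavy chains, 1 of 16 measured genes was called up and 1 down (0.588% of all genes were called), with a median difference of -0.22 beside 0.00 over all genes.

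The reads of these genes can be shared. Of the 31-base sequences in the GENCODE M21 transcripts of H2-K1, 22.8% also occur in other genes, most often in H2-D1, and the shares were 26.9% for H2-D1, 25.8% for H2-T23 and 16.6% for H2-K2. Among the other heavy chains, H2-Q7 shared 39.2%, H2-Q2 32.8% and H2-Bl 21.5%. Tapbp shared 26.9%, Tap2 14.3%, Psmb8 13.7%, Psmb9 4.79%, Tap1 4.09%, Nlrc5 0.579% and B2m 0.0%. How the counting divided such reads between genes was not tested. H2-K1 minus H2-D1 in the same library was -1.54 and -1.11 in T2DM, -0.76 and -0.05 in T1DM, and -0.84, -0.88, -0.27 and -0.29 in CT MCs, in each case with Ly6Chigh before Ly6Clow. The summed level of all 19 measured heavy chains, H2-K2, H2-Q2 and H2-Bl included, was 10.82 and 11.24 in T2DM, 11.48 and 11.99 in T1DM and 11.59 to 11.69 in CT MCs. This sum holds only reads assigned to these entries, and reads that were assigned to none could not be examined.

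Across the H2 complex, from Tapbp to H2-M2, 156 genes were measured. Of these, 12 were higher and 10 lower by more than 1 in T2DM than in T1DM MCs in both subsets, which is 14.1% beside 4.90% of all genes, and 7 genes were called (4.49% beside 0.588%). Among the genes with a mean log2 level of at least 3 the shares were 8.33% and 2.24%. The 8 class I genes of the complex held 1 of these called genes, H2-K1.

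**Figure D3:**
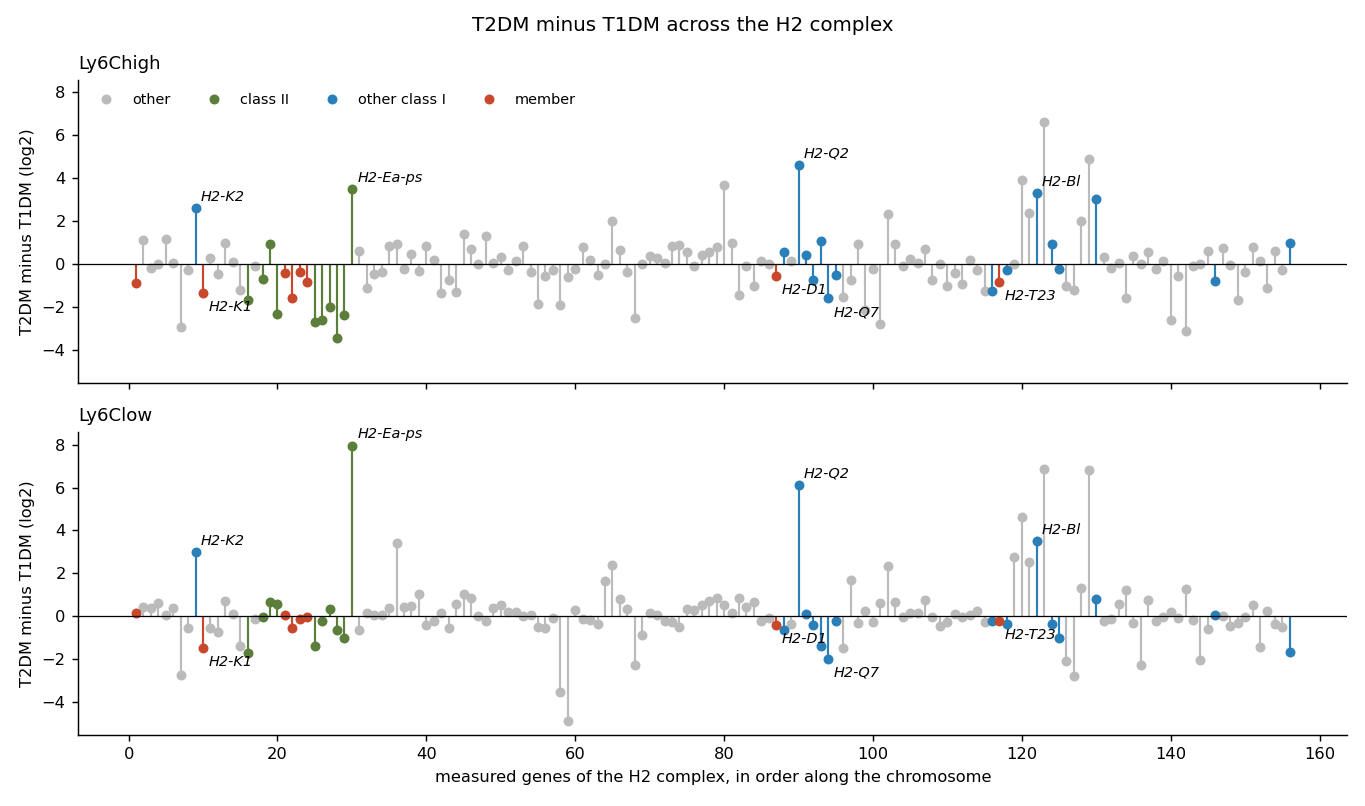
T2DM minus T1DM log2 difference (y axis) of the 156 measured genes of the H2 complex in chromosomal order (x axis) in Ly6Chigh (upper panel) and Ly6Clow MCs (lower panel), 1 library against another. Points are coloured for the class I genes followed here (member), other class I, class II and other genes. H2-K1 (-1.32 and -1.46) lies next to H2-K2 (2.64 and 2.99), and H2-Q2 (4.64 and 6.11) and H2-Ea-ps (3.49 and 7.95) lie above 0 in both panels.

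Genes of the same pathway were described from lists. Of 13 measured peptide loading and trimming genes, none was called in T2DM against T1DM MCs and the median difference was 0.11. Pdia3, the oxidoreductase of the loading complex, had 0.52 (SE 0.17), Calr 0.41 (SE 0.16) and Erap1, which trims peptides, 0.48 (SE 0.29), all without passing limma's threshold. None of 7 further inducible proteasome and activator genes was called (median -0.22), with Psme1, a subunit of the PA28 activator, at -0.40 (SE 0.13). None of 14 constitutive proteasome genes was called (median 0.18). The median over all genes was 0.00.

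Transcriptional regulators of class I genes and interferon-stimulated genes were described next. None of 17 class I regulators was called in T2DM against T1DM MCs (median -0.40). Irf9, a subunit of the factor that type I interferon activates, was at 7.12 in T1DM and 6.30 in T2DM Ly6Chigh MCs and at 6.39 and 5.62 in Ly6Clow MCs. The T2DM value was the lowest of its subset in both, and the difference of -0.80 (SE 0.13, limma, adjusted p = 0.0202) is under 2-fold.

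Of 24 interferon-stimulated genes, all 24 were lower in T2DM than in T1DM Ly6Chigh MCs (median -2.44, 20 by more than 1 beside 10.8% of all genes) and 22 in Ly6Clow MCs (median -0.83, 8 by more than 1 beside 7.97% of all genes). Over both subsets 2 were called (0.588% of all genes). These were Gbp3 and Rsad2, named after their values were seen, which were lower in T2DM (-1.63 and -1.66, limma, adjusted p = 0.00272 and 0.0093). Oas3, an antiviral RNA sensor, was at 7.68 in T1DM and 4.41 in T2DM Ly6Chigh MCs and at 5.43 and 3.78 in Ly6Clow MCs (-2.46, SE 0.36, limma, adjusted p = 0.0132). Oasl2 had -2.52 (SE 0.57, limma, adjusted p = 0.0709), Ifit3 -2.05 (SE 0.66, adjusted p = 0.199) and Ifit2 -1.86 (SE 0.46, adjusted p = 0.0959). In CT mice 7 of the 24 were called (3.52% of all genes), all higher in Ly6Chigh MCs, with a median of 1.91. Their part in the class I values was not tested. Of the receptors and signalling genes of interferon, none of 10 was called (median 0.02), with the receptor chain gene Ifnar1 at 0.38 (SE 0.15) and Usp18, which damps the receptor, at -1.45 (SE 0.54).

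Class II genes of the H2 complex are presented for contrast. The test of the T2DM subset difference called 3 of 10, beside 0.0303% of all genes (H2-Aa at -2.34, H2-Ab1 at -2.28 and H2-Eb1 at -2.72, limma, adjusted p = 0.0018, 0.00374 and 0.00374), against none of the 10 class I genes. H2-DMb1 had -2.74 without passing (limma, adjusted p = 0.0415). Whether class I and class II genes differ in this shift was not tested. Class II genes are expressed by B cells. The summed B cell markers were 8.54 in T2DM Ly6Chigh and 12.81 in T2DM Ly6Clow MCs. The subsets were also apart in T1DM (9.53 and 12.72) and in CT mice (9.03 and 8.98 against 12.54 and 12.55). The part of B cells and of the H2 haplotype in the class II values was not tested.

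**Figure D4:**
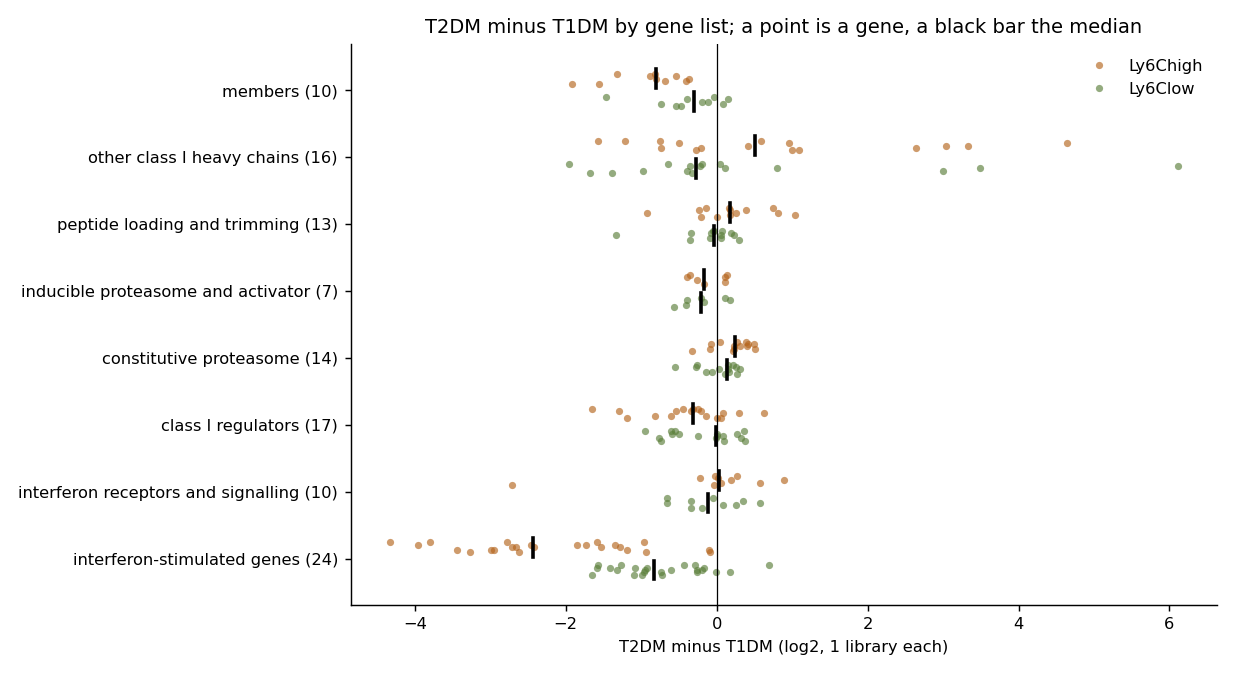
T2DM minus T1DM log2 difference (x axis) for each gene of 8 lists (y axis, number of measured genes in brackets) in Ly6Chigh and Ly6Clow MCs, 1 library against another. Black bars are medians. The 10 class I genes (members, medians -0.81 and -0.29) lie between the interferon-stimulated genes (-2.44 and -0.83) and the loading, trimming and proteasome lists, which lie around 0.

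The mean profile of the 10 genes, centred for each gene over the 8 libraries, was 0.28 and 0.29 in CT Ly6Chigh, -0.04 and -0.04 in CT Ly6Clow, 0.26 and 0.15 in T1DM and -0.67 and -0.23 in T2DM MCs, Ly6Chigh before Ly6Clow. The 5 genes with the most similar profile among those with a mean log2 level of at least 5 were Phf11b (Pearson r 0.99 over 8 libraries), Sdc3 (0.99), Zc3hav1 (0.984), Clec2d (0.983) and Gm8995 (0.963). These libraries share pools and sequencers, and the correlations are a description. Phf11b was at 5.89 in T1DM and 3.69 in T2DM Ly6Chigh MCs and at 5.67 and 5.09 in Ly6Clow MCs, and Zc3hav1, an antiviral zinc finger protein gene, was at 8.06 and 7.45 and at 8.04 and 7.82.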

How the data were processed

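RNA of sorted blood MCs was sequenced in 8 libraries, and each was assigned to its group by its title. Per the labels, the authors quantified reads with Kallisto 0.45, imported them into R 3.6.1 with version 1.12.3 of tximport, and mm10 is named in the submitters' processing notes. They deposited normalized log2 expression values for 16486 genes. The annotation, the scaling between libraries and any adjustment between sequencers are not given in the sources used here. Of the 8 value columns, all were used. No counts were available to this work, so no counting error can be given.

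Tests used limma 3.58.1 (lmFit, eBayes with a variance trend) in R 4.3.3 on the deposited values of all genes, with Benjamini-Hochberg adjustment. Calls needed an adjusted p below 0.01 together with an absolute log2 difference above 1. Fits covered the 4 CT libraries, or all 8 with mouse group and subset as terms, so the subsets served as the observations of a mouse group, and the interaction fit assumed that the T2DM libraries vary like the others. These tests were first tested on simulated data. Comparisons with 1 library on a side have no test. Alternatives were a pseudocount of 1, dropping genes whose mean log2 value was under 1, quantile normalization, no variance trend, an adjusted p limit of 0.05, the replicate block, leaving out each CT library and leaving out a diabetic group.

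The class I genes, the lists and the tests were chosen with earlier results of these data known. Named genes were the 10 class I genes, H2-Ea-ps, up to 4 genes of a list with the largest difference among those averaging 3 or more on the log2 scale, and the 5 genes most alike in profile. Genes outside this rule were named where 5 or fewer were counted or where the text says so. The CT replicate numbers did not pair the samples (r = 0.00892 between the replicate differences of the subsets). Tables and figures used Python 3.11.15, numpy 2.4.6, pandas 2.3.3 and matplotlib 3.10.9. GENCODE M21 and RefSeq GRCm38.p6 gave positions and sequences. Values of 1 regulator gene are not reported here.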

Additional observations from a re-analysis of the deposited data

Results flagged for a closer look

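In all 4 pairs of CT libraries Tap1, Tapbp, Nlrc5, H2-T23, H2-D1, B2m and Psmb8 were higher in Ly6Chigh than in Ly6Clow MCs, whereas in T2DM mice the Ly6Chigh library was the lower. Such a separation in CT was not counted over all genes, of which 37.7% had an unadjusted p under 0.05 in limma's CT test. In T2DM mice 51.3% of all genes were lower in the Ly6Chigh library. The lower Ly6Chigh value was not particular to T2DM for H2-D1 (-0.0371 in T1DM mice) and B2m (-0.149 in T1DM mice). For these genes the CT sign also turned under quantile normalization. The other genes named here were higher in the T1DM Ly6Chigh library. The T2DM differences were -0.878 for Nlrc5 and -0.624 for Tap1. For the heavy chains they were -0.178 for H2-D1 and -0.0803 for H2-T23, and for B2m -0.102. Tapbp had -0.0889 and Psmb8 -0.0206. The size of several of these is under the replicate difference of a typical gene in CT MCs (median 0.257 in Ly6Chigh and 0.247 in Ly6Clow). The test of the difference against CT and T1DM mice passed for none of the 7, with limma's adjusted p from 0.0784 for Nlrc5 to 0.711 for B2m.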

How the results depend on the processing

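Of the class I genes, 1 was called in CT between the subsets, 1 in T2DM against CT and 1 in T2DM against T1DM. The count between the subsets was 0 with quantile normalization, without the variance trend, with the replicate block and without any CT library (range 0 to 0). T2DM against CT gave 0 without the trend, with the replicate block and without any CT library (range 0 to 0), and T2DM against T1DM gave 0 without the trend. The CT replicate numbers share only a number (r = 0.00892 between the replicate differences of the subsets). Tap1 between the CT subsets had limma's adjusted p of 0.03423 with the replicate block and from 0.06602 to 0.08735 without a CT library, and H2-K1 in T2DM against CT had 0.03041 with the block. With quantile normalization, which moved the all-gene median of the CT subset difference from -0.0867 to 0.0196, 1 gene was past 1 between the T1DM subsets and 2 between the T2DM subsets, in place of 0 and 1. The cause of these changes was not tested.

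Signs turned for small differences. With quantile normalization H2-D1 was -0.0898 and B2m -0.0198 between the CT subsets, and -0.329 and -0.294 over mouse groups, and T1DM minus CT was -0.00806 for H2-D1, -0.0327 for H2-T23 and -0.0841 for B2m. With the replicate block T1DM minus CT was 0.0531 for Psmb8 and -0.0129 for Psmb9. Leaving out each CT library in turn gave Psmb9 from -0.321 to 0.0246 between the CT subsets, from -0.0843 to 0.0537 over mouse groups and from -0.126 to 0.0307 in T2DM minus CT. In T1DM minus CT it gave H2-D1 from -0.00542 to 0.0815, H2-T23 from -0.0437 to 0.0553, Tap1 from -0.0831 to 0.183, Tap2 from -0.0181 to 0.231 and Psmb8 from -0.109 to 0.0271. Without T2DM mice Psmb9 was 0.00637 over mouse groups.

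Counts of called genes over the whole table moved more. Between the CT subsets 581 became 1089 with the low-value filter, 1936 at the 0.05 limit and 0 without the trend, with the replicate block or without any CT library. T1DM against CT went from 0 to 2 at the 0.05 limit. T2DM against CT went from 49 to 9 without the trend, 105 at the 0.05 limit, 13 with the block and 17 to 21 without a CT library, and T2DM against T1DM from 97 to 26, 253, 62 and 57 to 84. The interaction went from 5 to 21 at the 0.05 limit and to 0 without the trend, with the block or without a CT library. With 1 pooled library for each diabetic subset and no counts, neither the spread between mice nor the depth is known.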

Other observations

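Receptors of class I molecules and members of the same receptor families were also measured, and 1 of 10 was called in T2DM against T1DM MCs (0.588% of all genes). Not every listed receptor has to bind class I molecules. Klra2, a Ly49 family receptor gene, was at 8.46 in T1DM and 7.13 in T2DM Ly6Chigh MCs and at 6.60 and 5.31 in Ly6Clow MCs, and it fell by 1.31 on the log2 scale (SE 0.13, limma, adjusted p = 0.00163). Klrd1, whose product forms the NK cell receptor for Qa-1, was at 2.58 and 0.37 in Ly6Chigh and at 5.75 and 4.09 in Ly6Clow MCs (-1.93, SE 0.30, limma, adjusted p = 0.0173). Of the 12 NK cell marker genes, 6 were called lower in the same comparison (0.588% of all genes called), with a median of -2.29, and the part of NK cells in these values was not tested. Pirb, an inhibitory receptor for class I on myeloid cells, was at 9.58 and 9.97 in Ly6Chigh and at 7.98 and 8.49 in Ly6Clow MCs (0.45, SE 0.10, limma, adjusted p = 0.0541). In CT mice, where 3.52% of all genes were called, 4 of the 10 receptors were called higher in Ly6Chigh MCs (Lilrb4a, Klra2, Pira2 and Pirb) and Klrd1 was called lower. None of 9 class I-like genes outside the H2 complex was called between the diabetic groups (median -0.06).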
